A study of Mus musculus with 6 samples.

Results

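The genes described here are 10 immediate early genes: the AP-1 subunit genes Fos, Fosb, Jun, Junb and Jund, the related bZIP gene Atf3, the zinc finger gene Egr1, the response genes Ier2 and Ier3, and the proto-oncogene Myc. They were chosen by name among 13968 genes that could be named on the array, and each had 1 probe, found by the RefSeq transcript the probe was designed for. Expression was measured in livers of C57BL/6 mice, all 14 months old, on 1-colour arrays hybridized with biotin-labelled cRNA. The groups were 3 wild-type livers (replicates 1, 2 and 4) and 3 livers of mice with a human c-Src transgene placed behind the mouse metallothionein promoter (replicates 1, 3 and 4). The promoter is inducible by zinc, which the study says was mostly not needed, and no carcinogen was given to the colony. In that colony 15% of transgenic mice had liver tumours at 20 months, later than the age sampled, and whether the sampled tissue held tumour is not given in the labels. The labels number the mice separately, so p-values measure the spread between these livers. The arrays of wild-type mouse 3 and transgenic mouse 2, which gave low signal, are not analysed here.

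Immediate early genes are transcribed within minutes of a growth factor or stress signal, from factors already present in the cell such as serum response factor, and most of their mRNAs are short-lived. Proteins of the Fos family pair with proteins of the Jun family through leucine zippers to form AP-1, which binds DNA and activates genes of growth and tissue remodelling. In liver these genes are known for their fast induction after partial hepatectomy and after injury. c-Src is a tyrosine kinase that feeds into the MAP kinase pathways upstream of them, and the question here is whether their mRNA levels differ with the transgene.

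The stretches before the start sites of Fos, Fosb, Jun and Junb are shown, and each of them held a motif match. Jund, Ier3 and Atf3 also had windows, which are not shown, and those of Jund and Ier3 held no match. The windows are 250 bases long, 5′ to 3′ on the gene's strand, from RefSeq (GRCm38.p6), and capitals mark matches to any of 7 searched motifs.
Fos, chr12:85473640-85473889, plus strand: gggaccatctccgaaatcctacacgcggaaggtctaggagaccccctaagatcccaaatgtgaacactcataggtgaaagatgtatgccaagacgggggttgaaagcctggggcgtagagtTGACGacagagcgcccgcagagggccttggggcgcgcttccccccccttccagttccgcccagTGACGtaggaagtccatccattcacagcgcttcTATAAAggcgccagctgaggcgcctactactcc
Fosb, chr7:19310046-19310295, minus strand: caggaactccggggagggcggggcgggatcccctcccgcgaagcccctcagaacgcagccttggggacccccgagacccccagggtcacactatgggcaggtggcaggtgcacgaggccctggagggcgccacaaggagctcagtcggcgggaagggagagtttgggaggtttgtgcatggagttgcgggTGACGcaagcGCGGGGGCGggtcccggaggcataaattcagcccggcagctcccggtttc
Jun, chr4:95052223-95052472, minus strand: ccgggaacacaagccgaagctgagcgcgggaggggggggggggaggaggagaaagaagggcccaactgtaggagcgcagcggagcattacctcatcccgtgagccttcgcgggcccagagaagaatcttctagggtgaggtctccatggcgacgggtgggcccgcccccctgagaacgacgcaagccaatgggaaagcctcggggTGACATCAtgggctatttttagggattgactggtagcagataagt
Junb, chr8:84978749-84978998, minus strand: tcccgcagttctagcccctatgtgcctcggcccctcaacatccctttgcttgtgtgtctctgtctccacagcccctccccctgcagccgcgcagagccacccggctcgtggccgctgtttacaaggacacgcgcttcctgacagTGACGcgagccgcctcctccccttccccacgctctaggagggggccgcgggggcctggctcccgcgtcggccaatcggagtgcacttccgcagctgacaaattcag

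The motif TGACG, the core of the cyclic AMP response element (CRE), was matched in 4 of the 7 genes with a window (Fos, Fosb, Junb and Atf3) and in 17.8% of all 32851 windows of this length. TGACNTCA, which covers the full CRE and a close relative, was matched in Jun as TGACATCA and in 7.49% of all windows, and its form with G at the N overlaps TGACG. The AP-1 motif TGANTCA (6.75% of windows), the E-box CACGTG (6.02%) and the CArG box of serum response factor (1.47%) were matched in none of the 7 windows. Egr1, Myc and Ier2 had no window, and sequence farther than 250 bases before the start site was not searched. Absence of a match therefore does not mean that a gene lacks the site. The EGR motif GCGNGGGCG was matched in Fosb and in 4.70% of windows, and TATAAA in Fos and in 12.4%. Both strands were searched, and 2 of these motifs were chosen after the windows had been read. A match is a string of letters and was not measured as a binding site.

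The arrays themselves differed before any gene was compared. The median probe signal was 53.8 to 93.4 on wild-type and 94.8 to 117 on transgenic arrays. Each array with the transgene thus outshone each control, and values are therefore given below both as deposited and as log2 values after quantile normalization between arrays. Wild-type replicate 1 was the dimmest array and held the highest normalized value for 25.9% of all features. A probe counted as above background when it exceeded a threshold of 33.0 to 50.6 set from the array's bacterial control spots. Of all probes 62.6% to 71.7% did so, and so did 11.6% to 20.7% of the control spots it was set from. The Src probe, which checks the labels, read 6.65, 7.21 and 6.62 in wild-type and 9.67, 8.48 and 7.71 in transgenic livers (log2). Its log2 difference was 1.79 ± 0.51 (SE, limma adjusted p = 0.69), and transgenic replicate 1 read highest. The probe was named by a mouse transcript, and how well it reads the human transgene was not tested. The metallothionein genes Mt1 and Mt2, which metals and stress induce, had log2 differences of 3.71 and 4.88 (limma adjusted p = 0.69 and 0.35) with the groups apart, and their part in the results below was not tested. Of the hepatocyte markers 12 of 12 were above background on all 6 arrays. Transgenic replicate 4 had 1 of 4 Y-linked genes above background and the other arrays 4 of 4, and the labels give no sex, so the differences without it are also given. With 3 arrays a group the number of arrays limits the precision.

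In transgenic livers 9 of the 10 genes had a positive log2 difference, and the median over the 10 was 0.67, where 51.7% of all 34175 features were positive and their median was 0.02. Junb, Myc, Jund and Fosb separated the groups, with every transgenic liver above every wild-type liver. This is 4 of 10 genes, against 10.1% of all features, and 0 of 10 separated them with the transgenic livers lower, against 5.9%. No gene passed limma's test over all features at an adjusted p under 0.05, where 0% of features passed. At an unadjusted p under 0.05, 2 of the 10 genes were higher (Junb and Myc) and 0 lower, against 4.37% and 2.72% of all features. An exact two-sided permutation test on 3 against 3 arrays cannot go below p = 0.1. In bulk liver more cells expressing a gene and more RNA per cell cannot be told apart.

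Most of the difference lay in 1 liver. Transgenic replicate 1 held the highest of the 6 normalized values for 9 of the 10 genes, the exception being Atf3, while it held the highest value for 15.1% of all features. The mean of the 10 genes on that array lay 1.59 log2 units above the wild-type mean. It was 0.12 on transgenic replicate 3 and 0.22 on replicate 4, and the wild-type arrays ran from -0.30 to 0.25. Atf3 weighs on these means, at 2.10 on wild-type replicate 2 and -1.71 on transgenic replicate 3. The medians of the 10 genes were 1.61, 0.30 and 0.24 on transgenic replicates 1, 3 and 4. On the wild-type arrays the medians ran from -0.14 to 0.11. Without replicate 1 the median log2 difference was 0.27 in place of 0.67 and 8 of the 10 genes were positive, where 48.5% of features were positive. Without replicate 4 the median was 0.87. The log2 differences were then 0.96 for Fos, 0.31 for Fosb, 0.98 for Jun, 1.41 for Junb, 0.78 for Jund, 2.16 for Egr1, 0.26 for Ier2, 0.42 for Ier3, -0.08 for Atf3 and 1.36 for Myc.

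**Figure D1:**
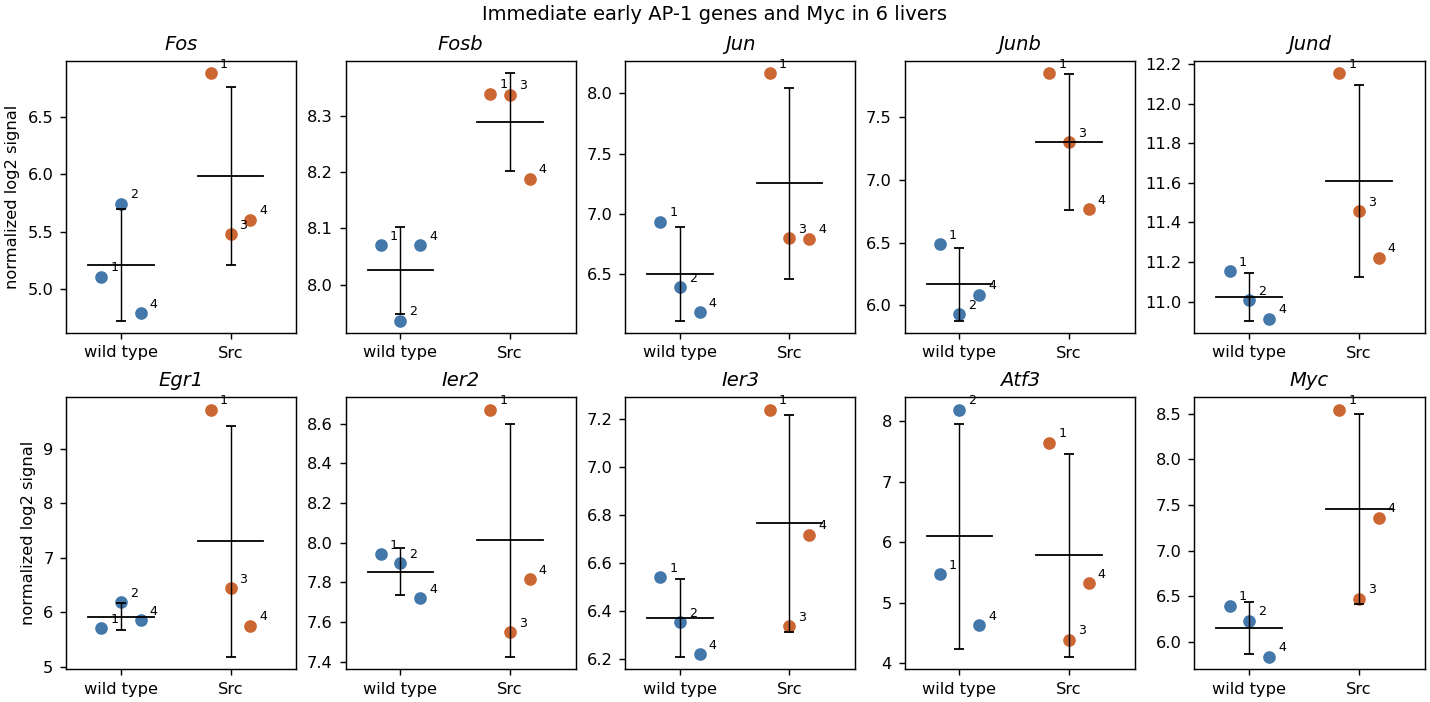
Normalized log2 signal of each of the 10 genes (vertical axes, own scale per gene) on the 3 wild-type and 3 Src-transgenic arrays, with replicate numbers beside the points. Horizontal lines are group means and bars 1 SD (n = 3). Transgenic replicate 1 is the highest point in 9 of the 10 panels, and the groups do not overlap for Fosb, Junb, Jund and Myc.

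Among the Jun genes, Junb had the largest difference. JunB is an AP-1 subunit that is itself induced as an immediate early gene. The deposited signal was 54.5, 53.4 and 71.2 in wild-type and 251, 197 and 145 in transgenic livers, all above background. After normalization the wild-type livers read 6.49, 5.93 and 6.08 and the transgenic livers 7.85, 7.30 and 6.76. All 3 transgenic livers lay above all 3 wild-type livers, and replicate 4 lay nearest to them. The log2 difference was 1.14 ± 0.33 (SE), or 2.20-fold (limma adjusted p = 0.69, exact permutation p = 0.1), and it was 0.87 without transgenic replicate 1 and 1.02 to 1.41 when any other array was left out.

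Jun encodes c-Jun, the main partner of Fos in AP-1. Its deposited signal was 73.6, 73.0 and 76.4 in wild-type and 310, 139 and 148 in transgenic livers, which puts every transgenic liver above every wild-type liver. Normalized, the values were 6.93, 6.39 and 6.18 in wild-type and 8.17, 6.80 and 6.79 in transgenic livers. The groups then overlapped, because wild-type replicate 1, the dimmest array, read above transgenic replicates 3 and 4. The log2 difference was 0.75 ± 0.44 (SE, limma adjusted p = 0.70, exact permutation p = 0.3) and 0.29 without transgenic replicate 1.

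JunD is the member of the family with steady expression in many tissues. The Jund probe gave a deposited signal of 1875, 1749 and 2057 in wild-type and 4750, 2914 and 2927 in transgenic livers. Normalized values were 11.15, 11.01 and 10.91 against 12.15, 11.46 and 11.22, with the groups apart. The log2 difference was 0.58 ± 0.29 (SE, limma adjusted p = 0.69, exact permutation p = 0.1), 0.31 without transgenic replicate 1 and 0.78 without replicate 4. This separation rested on the scaling, since with signals divided by the array median Jund read 34.9 on wild-type replicate 1 and 26.2 and 25.0 on transgenic replicates 3 and 4, and the log2 difference was 0.30 ± 0.36 (SE).

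The scaling decided how many of the 10 genes separated the groups. On the deposited scale all but Atf3, 9 of 10, had every transgenic array above every wild-type array, and so did 36.9% of all probes. With signals over the array median it was 3 genes (Fosb, Junb and Myc) and 7.98% of probes, and with quantile normalization 4 genes. Median scaling in place of quantile normalization also moved the median of all features from 0.02 to -0.08, while the 10 genes had a median of 0.56, and 3 of them separated the groups, against 8.03% of features. After local correction of patches it was also 3 genes, against 9.27% of features, but these were Jun, Junb and Jund. Junb alone separated the groups in each of these cases.

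**Figure D2:**
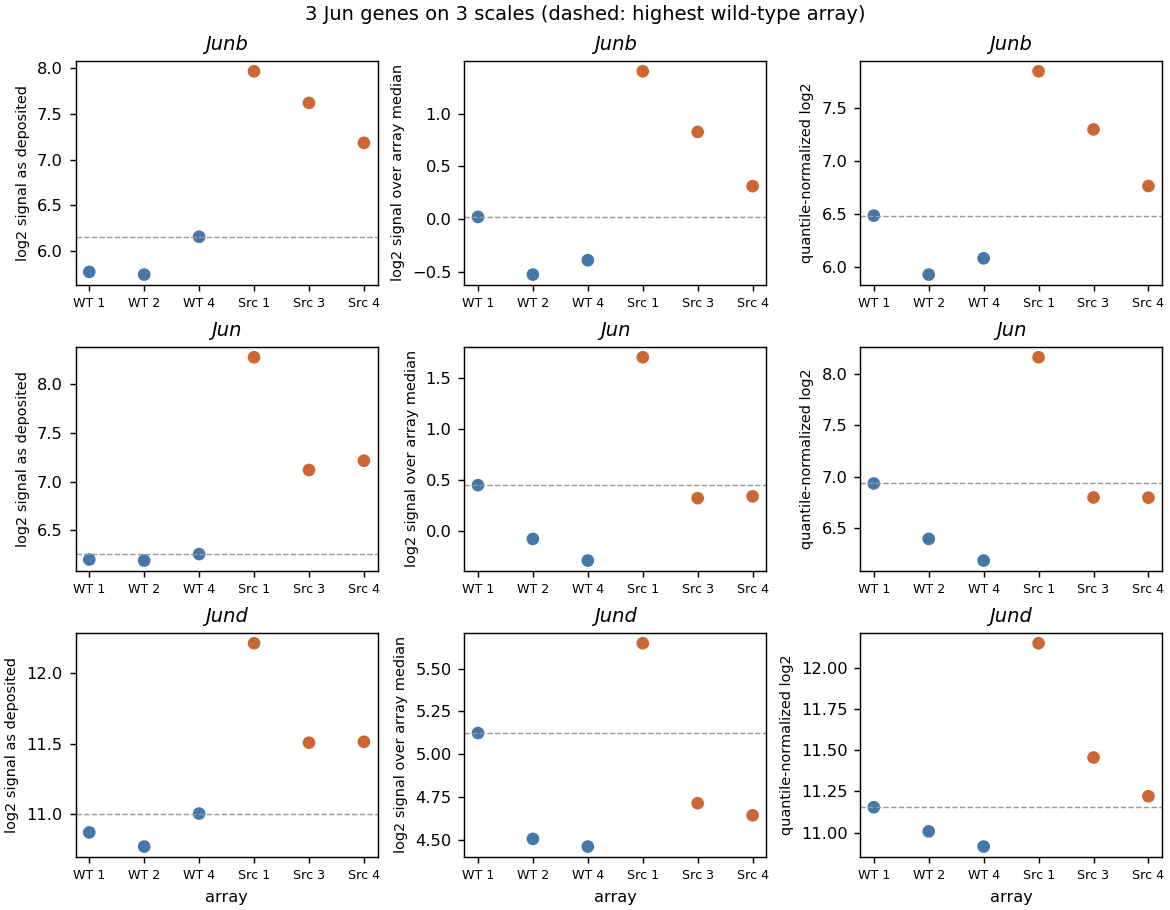
Junb, Jun and Jund (rows) on each of the 6 arrays (horizontal axes) as log2 of the deposited signal, log2 of the signal over the array median, and quantile-normalized log2 (columns). Dashed lines mark the highest wild-type array. Junb lies above the line on all 3 transgenic arrays on each scale, Jun only on the deposited scale, and Jund on the deposited and quantile-normalized scales.

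Both Fos genes had positive differences, on a dim probe for Fos. Fos encodes c-Fos, which needs a Jun protein to bind DNA as AP-1. Its deposited signal was 22.5, 47.1 and 28.2 in wild-type and 126, 55.3 and 62.2 in transgenic livers, and only 1 of the 3 wild-type values was above background. Normalized, it read 5.11, 5.74 and 4.79 against 6.88, 5.48 and 5.60, so that transgenic replicates 3 and 4 lay below wild-type replicate 2. The log2 difference was 0.77 ± 0.46 (SE, limma adjusted p = 0.70, exact permutation p = 0.3), 0.33 without transgenic replicate 1 and 0.40 after 50 was added to every signal, a step that damps dim probes.

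Fosb, a close relative of Fos, had the smallest spread of the 10 genes. Its deposited signal was 169, 211 and 286 in wild-type and 348, 398 and 382 in transgenic livers. Normalized values were 8.07, 7.94 and 8.07 (SD 0.08, n = 3) against 8.34, 8.34 and 8.19 (SD 0.09, n = 3). The groups were apart, but they overlapped after local correction of patches. The log2 difference was 0.26 ± 0.18 (SE), or 1.20-fold (limma adjusted p = 0.72, exact permutation p = 0.1). Fosb was the gene least changed by leaving out transgenic replicate 1, at 0.24.

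Atf3, a stress-induced bZIP gene whose protein can pair with Jun proteins, gave no usable comparison. Its signal was above background on 1 wild-type and 1 transgenic array, 251 on wild-type replicate 2 and 217 on transgenic replicate 1, and 24.7 to 50.2 on the others. On 3 of the 6 arrays its spot lay in a patch of unusual brightness, meaning that the neighbouring spots deviated together by over 0.5 log2 units. The bright wild-type spot was in such a patch (1.57 log2 units) and the bright transgenic spot was not. The log2 difference was -0.31 ± 1.18 (SE, limma adjusted p = 0.95, exact permutation p = 0.7), and 0.78 ± 0.82 (SE) after the local deviation was subtracted. The median over the other 9 genes was 0.75.

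Egr1, a zinc finger transcription factor induced through serum response factor, had the widest spread of the 10 genes among the transgenic livers (SD 2.12, n = 3, against 0.24 in wild type). Its deposited signal was 32.9, 63.5 and 60.7 in wild-type and 895, 109 and 69.8 in transgenic livers. Normalized, the wild-type livers read 5.71, 6.19 and 5.86 and the transgenic livers 9.72, 6.44 and 5.76. A single liver, transgenic replicate 1, stood 3.80 log2 units above the wild-type mean, and replicate 4 lay within the wild-type range. The log2 difference of 1.39 ± 1.00 (SE, limma adjusted p = 0.73, exact permutation p = 0.3) was 0.18 without replicate 1 and 2.16 without replicate 4.

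Ier2 and Ier3 are response genes of growth and stress signals, and Ier3 is known as a modulator of cell survival. Ier2 gave a deposited signal of 153, 205 and 224 in wild-type and 437, 234 and 296 in transgenic livers, and normalized values of 7.94, 7.90 and 7.72 against 8.67, 7.55 and 7.81. Transgenic replicate 3 was the lowest of the 6 and replicate 1 the highest. The log2 difference of 0.16 ± 0.32 (SE, limma adjusted p = 0.90, exact permutation p = 0.9) turned to -0.17 without transgenic replicate 1. Ier3 gave 56.5, 71.0 and 78.6 against 163, 101 and 140 as deposited signal. Its normalized values of 6.54, 6.35 and 6.22 against 7.24, 6.34 and 6.72 overlapped through transgenic replicate 3. The log2 difference for Ier3 was 0.39 ± 0.28 (SE, limma adjusted p = 0.73, exact permutation p = 0.3) and 0.16 without transgenic replicate 1.

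Myc encodes the growth-promoting transcription factor c-Myc, which works as a dimer with Max. The deposited signal was 51.4, 65.2 and 59.8 in wild-type and 401, 111 and 218 in transgenic livers. Normalized values were 6.40, 6.23 and 5.84 against 8.55, 6.47 and 7.36. The groups were apart, but transgenic replicate 3 lay only just above wild-type replicate 1, and below it after local correction of patches. The log2 difference was 1.31 ± 0.53 (SE), or 2.47-fold (limma adjusted p = 0.69, exact permutation p = 0.1), 0.76 without transgenic replicate 1 and 1.80 without replicate 3.

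**Figure D3:**
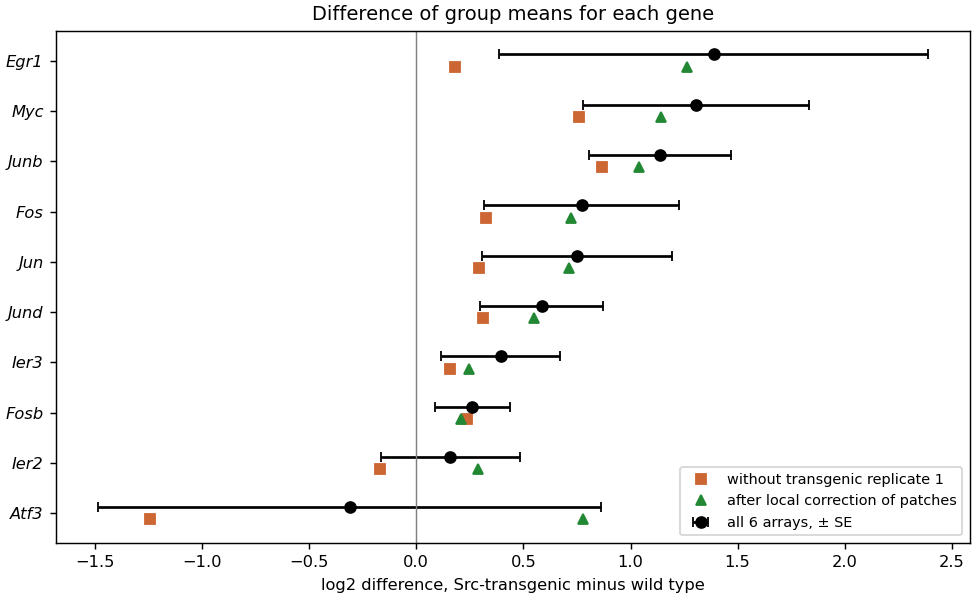
Log2 difference of group means, Src-transgenic minus wild type (horizontal axis), for each of the 10 genes, with limma's SE as bars. Squares leave out transgenic replicate 1 and triangles are after local correction of patches. Egr1 moves from 1.39 to 0.18 without that liver and Fosb from 0.26 to 0.24.

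The transgenic livers varied more among themselves than the controls on these genes. The SD was larger in transgenic than in wild-type livers for 9 of the 10 genes, where this was so for 44.2% of all features. The median SD of the 10 genes was 0.68 in transgenic and 0.27 in wild-type livers (log2, n = 3 each), against 0.30 and 0.34 over all features. By root mean square distance between profiles over the 6 arrays (log2 value minus the wild-type mean), Ier2 and Ier3 were each other's nearest gene (0.20). The nearest gene was Jun for Fos (0.35), Junb (0.38) and Myc (0.49), and Jund for Jun (0.28). Egr1 lay 0.84 from its nearest gene, Myc, and Atf3 1.23 from Fos.

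Genes outside the set were ranked by the same distance to the mean profile of the 7 genes above background on all 6 arrays. That profile was 0.20, -0.05 and -0.15 on the wild-type and 1.27, 0.31 and 0.39 on the transgenic arrays. Of 9606 other named genes above background on all arrays, the nearest were Chd1, a chromatin remodeller (0.10), Btg3, an antiproliferative gene (0.14), Gmeb2 (0.15), Wdr5b (0.16) and Dnase1l3, a secreted DNase (0.16). Btg3 read 7.18, 6.98 and 6.99 in wild-type and 8.57, 7.19 and 7.51 in transgenic livers. The list is a description of 6 arrays and carries no test.

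The other genes of the pathway were taken from lists chosen by function. Of 47 other immediate early genes 33 had a positive log2 difference (51.7% of all features) and the median was 0.29. Unadjusted, 3 were higher and 1 lower at limma p under 0.05, against 4.37% and 2.72% of all features. The groups were apart with transgenic higher for 7 (10.1% of features), and 0 passed over all features. Transgenic replicate 1 held the highest value for 20 of the 47, and for 15.1% of all features. The mean of the 47 there lay 0.71 above the wild-type mean, against 0.08 and 0.16 on replicates 3 and 4. Without replicate 1 the median of the 47 was 0.10.

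Gadd45g, a growth arrest and DNA damage gene, read 6.77, 6.09 and 5.80 in wild-type and 7.69, 8.85 and 7.62 with the transgene, and its log2 difference was 1.83 ± 0.43 (SE, limma adjusted p = 0.69). Unlike the AP-1 genes it was highest on transgenic replicate 3. The orphan nuclear receptor gene Nr4a1 read 5.69, 6.10 and 5.78 against 7.63, 6.40 and 6.55, a log2 difference of 1.00 ± 0.37 (SE, limma adjusted p = 0.69). Both had the groups apart. Cited2, a transcriptional coregulator gene, was above background on 2 wild-type arrays and not well above it on any transgenic array. Its log2 difference of -0.72 ± 0.27 (SE) was -0.50 without wild-type replicate 1. With all arrays its bound was at least 1.45-fold lower with the transgene. For such a bound the dim group is put at the lowest signal above background wherever its own signal lay under it. Dusp1, the phosphatase that switches off MAP kinases and itself an immediate early gene, lay in a patch on 3 arrays and had 0.08 ± 0.26 (SE) as normalized and 0.50 ± 0.32 (SE) after local correction.

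Among the other AP-1 and bZIP genes 11 of 14 were positive (51.7% of all features), with a median of 0.19. The groups were apart for 0 of the 14, against 10.1% of all features with transgenic higher and 5.9% with transgenic lower. Fosl1, which encodes the Fos relative Fra-1, had 0.13 ± 0.32 (SE), and Fosl2 is not analysed here. The stress factor genes Ddit3 and Atf4 had 1.07 ± 0.56 and 0.29 ± 0.21, and Jdp2, a repressor of AP-1, 0.37 ± 0.28 (SE). Each overlapped between the groups.

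Genes upstream of the immediate early genes were mostly negative. Of 21 genes for serum response factor, its partners and the MAP kinase cascade, 5 were positive and 16 negative, with a median of -0.12. Among all 13968 named genes 7306 were negative, with a median of -0.02. Wild-type replicate 1, the dimmest array, held the highest value for 12 of the 21, and without it the median was -0.03. Srf itself read 7.04, 6.53 and 6.53 in wild-type and 6.82, 6.64 and 6.59 with the transgene, so that its log2 difference was -0.02 ± 0.22 (SE). Elk4, a partner of serum response factor, had -0.63 ± 0.29 (SE). The kinase gene Rps6ka3 had the groups apart, but was above background on 1 array only, and Rps6ka5 was above it on none. These genes were measured as mRNA, and kinase activity was not.

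In the Myc and Max network 5 of 13 genes were positive (51.7% of all features) and the median was -0.17. Max read 8.67, 8.34 and 8.49 in wild-type and 8.56, 8.12 and 8.30 with the transgene, and its log2 difference was -0.17 ± 0.21 (SE). The repressors Mxd3 and Mxi1 had 0.44 ± 0.21 and -0.36 ± 0.20, each with the groups apart. Mycn was not well above background on any transgenic array and read 5.28, 7.46 and 9.10 in wild-type livers, with 1 array in a patch. No fold is given for it, since its log2 difference was -2.58 as normalized, -1.15 after local correction of patches and -1.67 without wild-type replicate 4.

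Of 22 growth genes known to be induced by Myc, 14 were positive (51.7% of all features), with a median of 0.19. The groups were apart with transgenic higher for 3 of the 22, where this was so for 10.1% of all features. The median was 0.04 with median scaling and 0.02 without wild-type replicate 4. Nop58, a ribosome biogenesis gene, read 7.31, 7.37 and 7.34 against 8.48, 7.72 and 8.34, a log2 difference of 0.84 ± 0.25 (SE, limma adjusted p = 0.69), with 1 array in a patch. Rrs1, also with 1 array in a patch, had 0.87 ± 0.37 (SE) and 0.34 after local correction. Hspe1 had 0.54 ± 0.25 (SE).

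Of 17 genes known as AP-1 targets 11 were positive (51.7% of all features), with a median of 0.20. The groups were apart for 0 of the 17, against 10.1% of all features with transgenic higher and 5.9% with transgenic lower. Of these genes, 5 were above background on no array. The median was 0.06 with median scaling, 0.36 without wild-type replicate 1 and 0.04 without wild-type replicate 4. Cdkn1a, the cell cycle inhibitor p21, read 5.96, 4.69 and 5.18 in wild-type and 9.33, 7.70 and 5.45 with the transgene, and lay in a patch on 1 array. Only 1 of its wild-type values was above background, and its log2 difference of 2.22 ± 0.96 (SE) was 1.30 without transgenic replicate 1 and 3.24 without replicate 4. The growth factor gene Hbegf was at background in all 3 wild-type livers. With all arrays its bound was at least 1.39-fold higher with the transgene, but the groups overlapped. Normalized, Hbegf read 5.52, 5.27 and 4.79 against 6.72, 5.95 and 5.44. Its log2 difference of 0.84 ± 0.38 (SE) fell to 0.50 once the brightest liver, transgenic replicate 1, was left out. Adding 50 to every signal gave 0.43. The chemokine gene Ccl2 had 0.44 ± 0.25 (SE). Ccnd1, which encodes cyclin D1, was above background on 1 transgenic array alone and is given no fold.

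Cytosolic heat shock genes encode chaperones induced by protein stress, and their values were also highest on transgenic replicate 1. All 14 tested were positive (51.7% of all features), 6 had the groups apart with transgenic higher (10.1%) and 12 had their highest value on that array (15.1%). Their median of 0.75 was 0.43 without transgenic replicate 1. Their mean lay 1.36, 0.70 and 0.25 above the wild-type mean on transgenic replicates 1, 3 and 4. The cochaperone gene Dnajb1 read 8.84, 8.56 and 8.78 in wild-type and 12.51, 10.77 and 9.74 with the transgene, and its log2 difference was 2.28 ± 0.67 (SE, limma adjusted p = 0.69). Dnajb4 and Chordc1 had 1.00 ± 0.25 and 0.75 ± 0.25 (SE). The part of stress or of tissue handling in the values of the immediate early genes was not tested.

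Markers of liver cell types differed in direction on transgenic replicate 1. There the mean level of hepatocyte markers (12 genes) lay 0.05 above the wild-type mean, that of Kupffer cell and macrophage markers (10 genes) 0.09 below, and that of neutrophil markers (11 genes) 0.25 above. T, B and natural killer cell markers (12 genes) lay 0.44 below, endothelial markers (8 genes) 0.23 below and stellate cell and fibroblast markers (11 genes) 0.33 below. Cholangiocyte markers (8 genes) lay 0.30 above, with 4 of the 8 highest on that array. The median deviations there were -0.08 for hepatocyte, -0.06 for macrophage, 0.24 for neutrophil and -0.22 for T, B and natural killer cell markers. They were -0.17 for endothelial, -0.28 for stellate cell and fibroblast and 0.28 for cholangiocyte markers. Transgenic replicate 4 had the highest value of 9 of the 10 macrophage markers, with a mean 0.69 above the wild-type mean. The part of these cell types in the result was not tested.

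**Figure D4:**
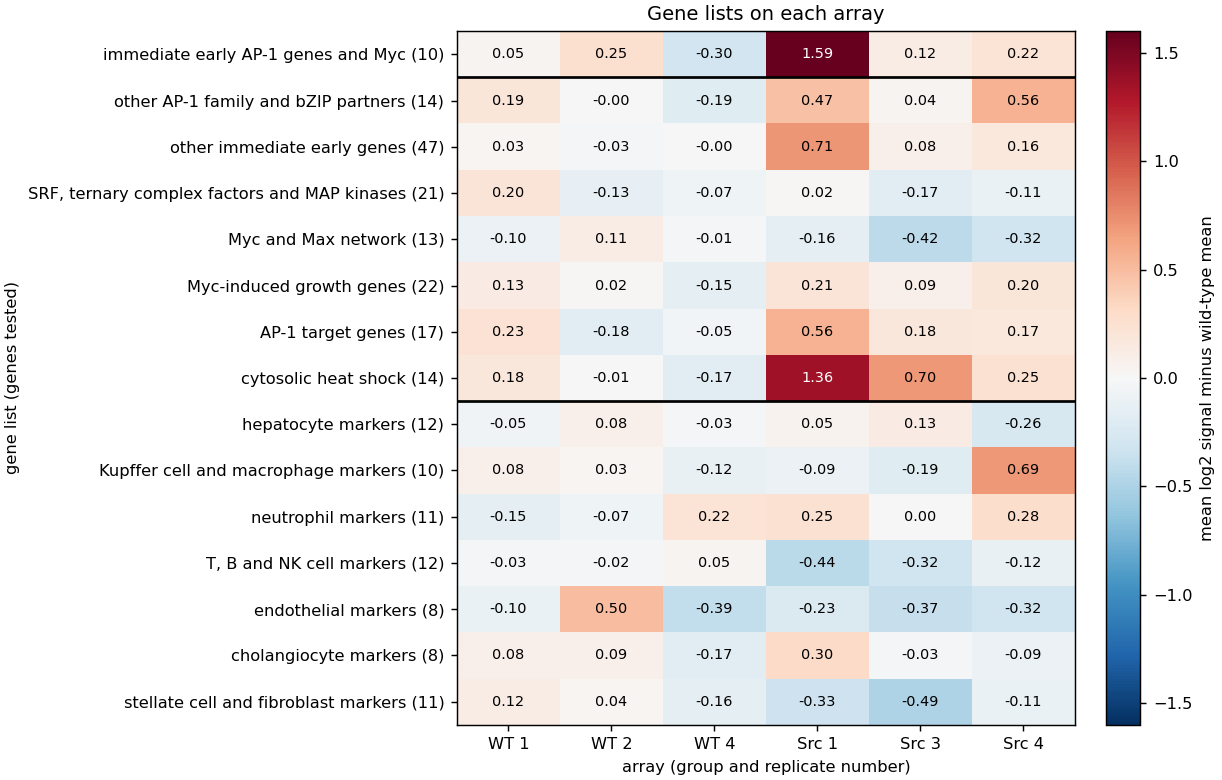
Mean log2 signal of each gene list minus its wild-type mean (colour and printed value) on each of the 6 arrays, with the number of genes tested in brackets. The top row is the 10 immediate early genes, at 1.59 on transgenic replicate 1, followed by 7 related lists and 7 marker lists. Heat shock genes reach 1.36 on the same array.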

How the data were processed

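Per the labels' protocols, poly(A)+ RNA was amplified to biotin-labelled cRNA and stained with Alexa-647 streptavidin, and the image software is not given in the sources used here. Per the file headers, a spot's intensity is its linear signal with background taken out. A second deposited intensity is this signal divided by the array median, and the authors' value table equals it within 1e-06 for all 34967 mouse probes. The 620 bacterial control spots were left out, signals were raised to the array's 1st percentile of positive signals (4.72 to 5.75), and log2 values were quantile normalized. The background threshold lay 3 scaled median absolute deviations above the median of 570 control spots. RefSeq accessions of GRCm38.p6, without versions, gave names to 14760 probes (13968 genes) but not to 20207. The brightest probe stood for a gene. The test was limma's moderated test (version 3.58.1, R 4.3.3), two-sided, with Benjamini-Hochberg adjustment over 34175 features. Tested on simulated data of this design, it recovered 2% of 50 changes of 1 log2 unit and 42% of 50 changes of 2. A patch was where the median deviation of spots within 4 rows and columns exceeded 0.5. Figures were drawn with matplotlib 3.10.9.

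The genes, lists and rules were chosen with earlier results of these data known. All 10 genes were described, then from each related list the 3 genes with the smallest p, some textbook members whatever their value, and the 5 genes nearest in profile. Alternatives were other scalings, floors, offsets, filters, spread models, array weights, patch correction, a replicate block and each array left out in turn.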

Additional observations from a re-analysis of the deposited data

How the results depend on the processing

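Of the 166 values of the 10 genes under 17 alternatives, 161 kept their direction and their side of the threshold. Their limma adjusted p ran from 0.57 to 0.99, so none came near it. The floor at 1, both background filters, each probe on its own and the trended spread left every log2 difference unchanged. The authors' value table nearly repeated median scaling. Much of the count was thus fixed beforehand. Of the 10 genes, 8 kept their direction under each alternative that tested them. Atf3 turned to 0.78 with local correction of patches and to 1.44 with the replicate block, and leaving out single arrays gave -1.24 to 0.74. Ier2 ran from -0.17 to 0.39 when single arrays were left out. The cause of the turn was not tested for Ier2.

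The median of the 10 genes was 0.27 to 0.87 with single arrays left out and 0.47 to 0.97 under the other alternatives. Genes with the groups apart numbered 3 with median scaling or patch correction (8.03% and 9.27% of features), chosen after seeing the data. Only Junb was among the 3 both times. With single arrays left out the genes with the groups apart numbered 4 to 5, where the count could only stay at 4 or rise. The share of all features then rose too, from 10.1% to between 13.7% and 16.8%. Over all features 0 were called, 1 when every probe was tested on its own and 0 to 1 with single arrays left out. Unadjusted p-values under 0.05 numbered 1493 (higher) and 931 (lower) over all features, 943 and 1312 with median scaling, 1235 and 1357 with patch correction and 679 and 669 with the replicate block. Numbers 1 and 4 occur in both groups, and same-numbered arrays deviated together by 0.06 and 0.06 (correlation over features). The other pairings of arrays between the groups ran from -0.07 to 0.02. The labels name no batch, and whether a shared number stands for a shared batch cannot be told from these values. With the replicate block the pairing left Junb at 1.02, Myc at 1.84 and Fos at 1.29 (limma adjusted p = 0.85 each). The filter for signal above background on all 6 arrays removed Fos, Egr1 and Atf3, and that on at least 3 arrays removed Atf3.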
